A study of Mus musculus with 8 samples.

Results

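The cell cycle and DNA replication genes described here are 42 genes chosen by symbol, 20 that act in S phase and 22 that act in mitosis, among 24421 genes of the deposited table. Their transcripts were counted in splenic follicular regulatory T cells (TFR cells) of mice, in 4 libraries from Blimp1-flox Foxp3-cre mice and 4 from wild-type (WT) mice. The floxed gene is Prdm1, which encodes the transcriptional repressor Blimp1, and Foxp3-cre acts in every Foxp3-expressing cell and not in TFR cells alone. The labels do not say whether WT mice carried the Cre, whether 1 or both alleles were floxed, how old the mice were, or whether the libraries of a genotype came from separate mice, so p-values measure the spread between these libraries. All mice had been given peanut with cholera toxin by mouth in 2 challenges, and cells were taken at 36 days. The sort kept Foxp3-YFP+ CXCR5+ PD1+ cells from a CD4+ T cell preparation. The libraries held 16425538 to 27595939 counts, and single members had from 89 counts (Ccne2, lowest library) to 16174 counts (Mcm6, highest library).

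A dividing T cell copies its DNA in S phase and separates the copies in mitosis. Before S phase, origins of replication are loaded with the MCM helicase, and E2F factors switch on genes for the helicase, for DNA polymerase cofactors and for deoxynucleotide synthesis. Later, the B-type cyclins with the kinase Cdk1 drive entry into mitosis, and the anaphase-promoting complex (APC/C) ends it by destroying them. The E2F wave and the mitotic wave are transcribed at different times, so their transcripts can be compared within a sample. In bulk RNA, a larger share of dividing cells and more of a transcript per dividing cell cannot be told apart. Regulatory T cells are known to divide after antigen contact, and Blimp1 is best known for ending proliferation when B cells become plasma cells.

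All 42 members passed the filter on low counts and were among the 12363 genes tested. Levels are TMM-scaled CPM, that is counts scaled to a common library total, and log2 fold changes are Blimp1-flox over WT from the quasi-likelihood test of edgeR, with p-values adjusted over all tested genes and calls at an adjusted p under 0.05. Prdm1 fell to 11.8 ± 4.02 CPM in Blimp1-flox, against 51.8 ± 19.2 CPM in WT (SD, n = 4 each; edgeR adjusted p = 0.0203), with no overlap between the genotypes, and its call was lost without Blimp1-flox 1 (adjusted p = 0.103). Defining markers of the labelled cells were present, with Cd3e at 1344 ± 75.9 CPM in Blimp1-flox and 1410 ± 214 CPM in WT, Cxcr5 at 512 ± 40.1 and 458 ± 50.7 CPM, and Foxp3 at 65.9 ± 8.14 and 87.0 ± 13.4 CPM (SD, n = 4 each). Of the 9 TFR and CD4 T cell markers 5 had a positive and 4 a negative log2 fold change. At an unadjusted p under 0.05, 2 of the 9 were lower and none higher, beside 9.05% lower and 7.11% higher over all genes. Of the 9 markers 1 was called, Il2ra, which encodes CD25, a chain of the high-affinity interleukin 2 receptor. It fell to 39.0 ± 13.2 CPM in Blimp1-flox, against 103 ± 20.0 CPM in WT, without overlap (SD, n = 4 each; edgeR adjusted p = 0.0311). The Il2ra call was lost without Blimp1-flox 1, 2 or 4 or WT 2 (adjusted p = 0.0564 to 0.105). A pair of libraries stood apart from the rest. Blimp1-flox 3 had a score of -50.8 on the second principal component, where no other library was below -1.62. WT 4 had a score of -51.8 on the first, where no other WT library was below -19.7.

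The mitotic members were higher on balance in Blimp1-flox TFR cells, and the S phase members lay nearer to 0. Every one of the 22 mitotic members had a positive log2 fold change, from 0.09 to 1.10 with a median of 0.52, and 1 of them, Ccnb1, passed the test. Of the 20 S phase members 16 had a positive and 4 a negative log2 fold change, from -0.16 to 0.60 with a median of 0.13, and none passed. Among all tested genes the median was 0.0012, and 50.1% had a positive log2 fold change. Over all genes 0.259% were called higher and 0.243% lower. At an unadjusted p under 0.05, 12 mitotic members (54.5%) and 5 S phase members (25.0%) were higher and none of the 42 was lower, while 7.11% of all tested genes were higher and 9.05% lower. These counts and medians describe the lists, and neither list nor the difference between them was tested as a whole.

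**Figure D1:**
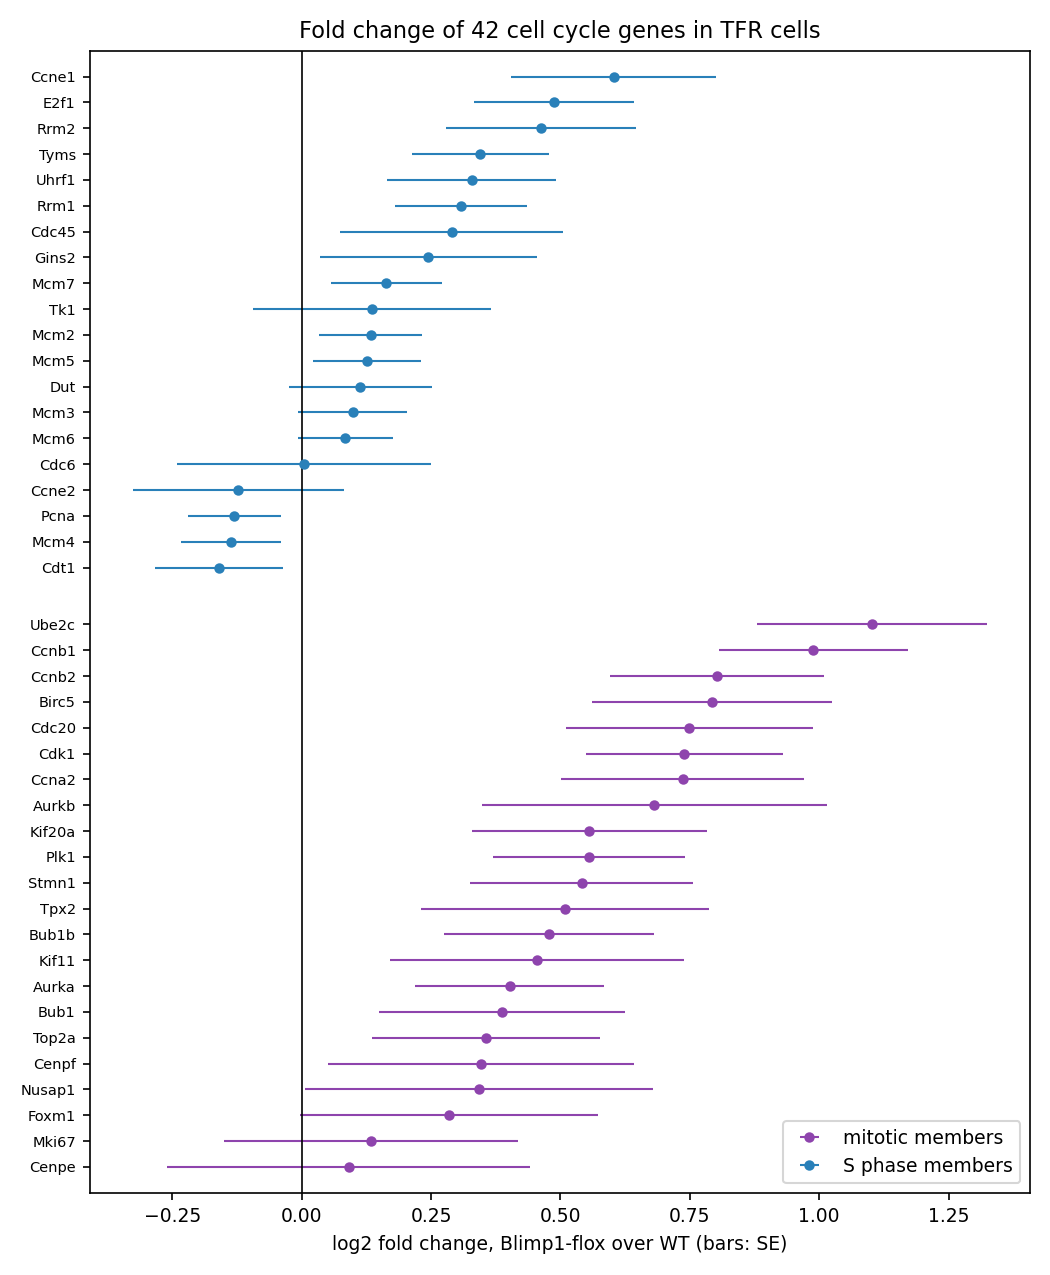
Log2 fold change of each of the 42 members (x axis, Blimp1-flox over WT; bars are standard errors), with S phase members above and mitotic members below, each sorted by value. All 22 mitotic members lie right of 0, led by Ube2c at 1.10 and Ccnb1 at 0.99, and 16 of 20 S phase members do.

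Summed over its genes, the mitotic list held 660, 747, 1310 and 919 CPM in Blimp1-flox libraries 1 to 4, against 500, 560, 615 and 854 CPM in WT libraries 1 to 4. The sums overlapped between the genotypes, since WT 4 exceeded Blimp1-flox 1 and 2. The S phase list held 2006, 2098, 2662 and 2229 CPM in Blimp1-flox, against 2089, 1929, 2094 and 2193 CPM in WT. Apart from Blimp1-flox 3, the S phase sums of the genotypes covered much the same range. Most of the S phase sum came from the 6 MCM helicase genes, on average 1423 of 2249 CPM in Blimp1-flox and 1350 of 2076 CPM in WT. The mitotic sum divided by the S phase sum was 0.329, 0.356, 0.492 and 0.412 in Blimp1-flox, with a mean of 0.397 ± 0.0721, against 0.239, 0.291, 0.294 and 0.389 in WT, with a mean of 0.303 ± 0.0626 (SD, n = 4 each). WT 4 again lay within the Blimp1-flox range.

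**Figure D2:**
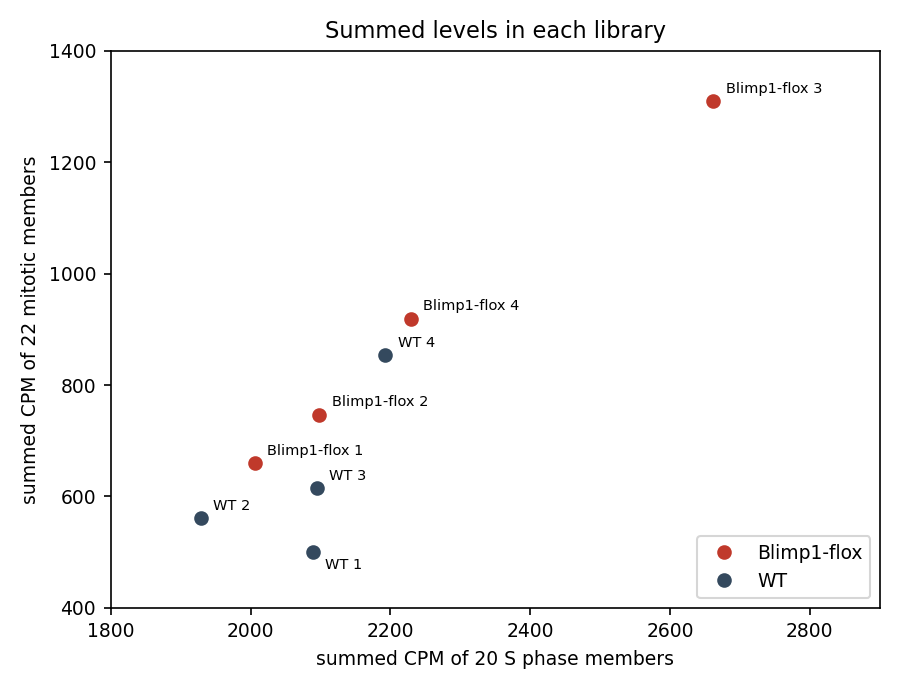
Summed CPM of the 20 S phase members (x axis) and of the 22 mitotic members (y axis) in each library; axes do not start at 0. Blimp1-flox 3 is highest on both axes at 2662 and 1310 CPM, and at S phase sums of 2089 to 2098 CPM the mitotic sum is 747 in Blimp1-flox 2, 500 in WT 1 and 615 in WT 3.

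Blimp1-flox 3 and WT 4 were the libraries richest in these transcripts within their genotypes. Blimp1-flox 3 was the highest of all 8 libraries in 21 mitotic and 16 S phase members, and the highest of its own genotype in all 42. WT 4 was the highest WT library in 21 mitotic and 16 S phase members. The lowest library for a mitotic member was WT 1 in 11 genes, WT 2 in 7 and Blimp1-flox 1 in 4. Without Blimp1-flox 3 the median log2 fold change of the mitotic members was 0.29 with 19 positive, and that of the S phase members 0.05 with 13 positive. Without WT 4 the medians were 0.68 and 0.22, and without both libraries they were 0.46 and 0.11, with 22 mitotic and 15 S phase members positive.

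**Figure D3:**
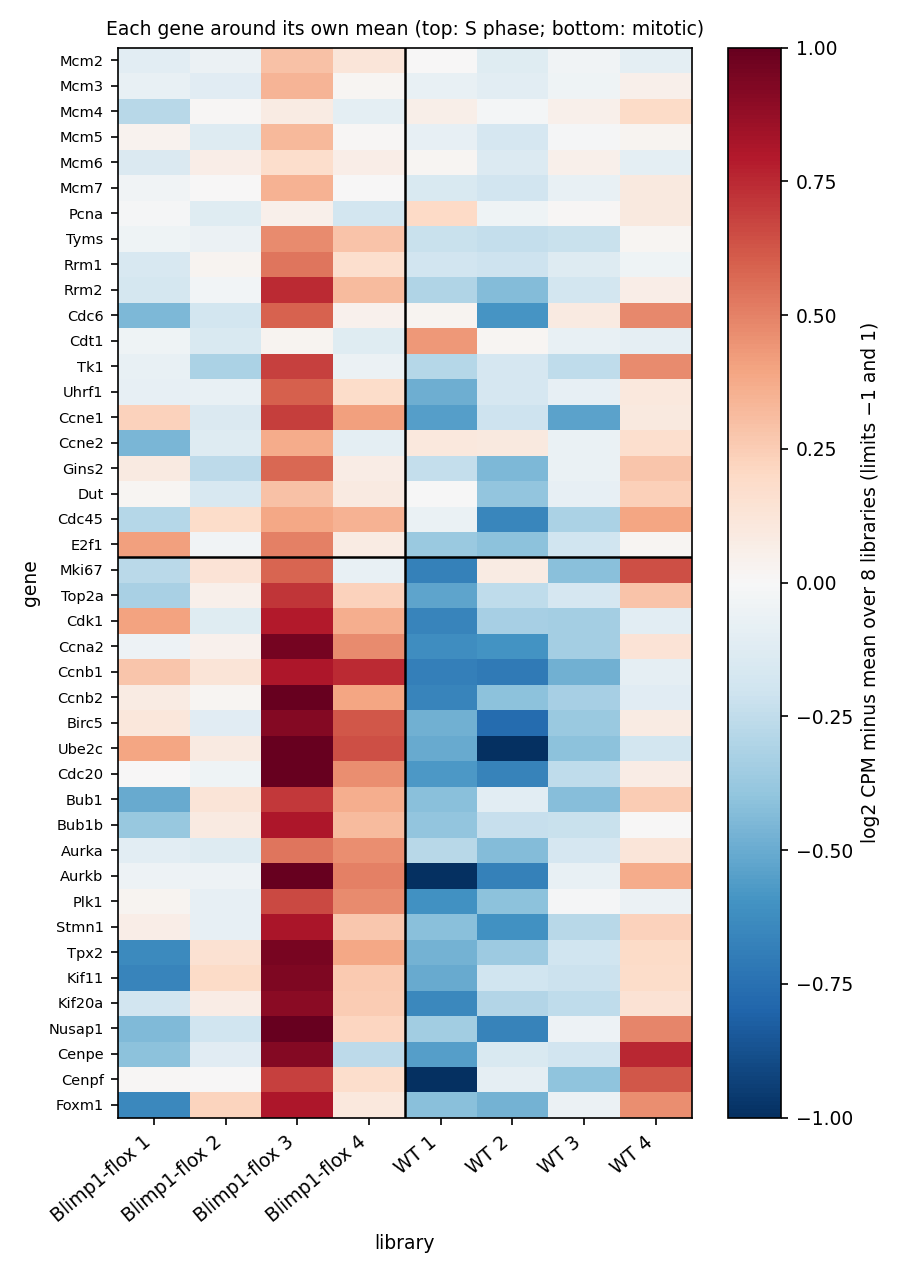
Log2 CPM of each member minus its mean over the 8 libraries (colour, limited to between -1 and 1), with Blimp1-flox libraries left of the vertical line and WT right of it, and S phase members above the horizontal line. Blimp1-flox 3 is the highest library in 21 of 22 mitotic rows, and the lowest is WT 1 in 11 and WT 2 in 7.

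The mitotic cyclins and their kinase had similar log2 fold changes, from 0.74 to 0.99, and 1 of these 4 genes passed the test. Ccnb1, cyclin B1, which activates Cdk1 at the entry into mitosis, held 34.7, 31.3, 50.1 and 48.1 CPM in Blimp1-flox libraries and 17.8, 17.5, 20.5 and 26.8 CPM in WT libraries. Every Blimp1-flox library lay above every WT library. Ccnb1 rose 1.98-fold, a log2 fold change of 0.99 ± 0.18 (SE, n = 4 each; edgeR adjusted p = 0.0360). Of 8 fits that each left out a library, the 2 without Blimp1-flox 2 (adjusted p = 0.0263) and without WT 4 (adjusted p = 0.0149) kept the call. The other 6 lost it, at adjusted p-values from 0.0539 to 0.150 and log2 fold changes from 0.88 to 1.06. Without WT 4 and Blimp1-flox 3 together Ccnb1 had a log2 fold change of 1.03 and an adjusted p of 0.0131.

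Ccnb1 lies on chromosome 13 from 100778739 to 100786486 on the minus strand (mm10, from the deposited exons). Its promoter window, from RefSeq on build GRCm38.p6, runs from 250 bases before the annotated start to 50 after it, and is shown because Ccnb1 is the called member. Capitals mark a pair of CCAAT boxes, which bind NF-Y, and a match to the E2F core TTGGCGC on the opposite strand that overlaps the first box. The boxes begin 99 and 67 bases before the start, and the window holds no match to TTTGAA or TTCGAA.
Ccnb1 promoter, chr13:100786437-100786736, minus strand, 5′ to 3′: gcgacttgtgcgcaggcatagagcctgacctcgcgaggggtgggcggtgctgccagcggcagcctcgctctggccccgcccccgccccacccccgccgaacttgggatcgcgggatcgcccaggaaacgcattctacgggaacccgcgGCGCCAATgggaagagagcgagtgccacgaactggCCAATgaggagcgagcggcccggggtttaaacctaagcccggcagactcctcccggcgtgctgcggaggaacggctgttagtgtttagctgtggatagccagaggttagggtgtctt

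Ccnb2, cyclin B2, held 34.2, 32.6, 65.4 and 42.5 CPM in Blimp1-flox and 20.5, 24.3, 25.6 and 29.8 CPM in WT. Its groups did not overlap either, and its log2 fold change of 0.80 ± 0.21 (SE) did not pass (edgeR adjusted p = 0.110). Cdk1, the kinase of both cyclins, held 23.6, 16.4, 31.0 and 23.0 CPM in Blimp1-flox and 11.3, 14.2, 14.1 and 16.6 CPM in WT. Only Blimp1-flox 2 and WT 4 overlapped, and the log2 fold change of 0.74 ± 0.19 (SE) did not pass (edgeR adjusted p = 0.103). Ccna2, cyclin A2 of S phase and early mitosis, differed by a log2 fold change of 0.74 ± 0.23 (SE), with levels from 36.8 to 74.0 CPM in Blimp1-flox and from 24.7 to 41.9 CPM in WT (n = 4 each; edgeR adjusted p = 0.184). Exons of Ccna2 overlap Exosc9 on the other strand, and no source used here gives the strand setting of the counting.

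Neither of the 2 APC/C genes passed, at a median of 0.93 on the log2 scale. Ube2c, the ubiquitin-conjugating enzyme of the APC/C, held 32.5, 26.3, 51.5 and 38.5 CPM in Blimp1-flox and 17.4, 11.5, 18.6 and 21.8 CPM in WT. All Blimp1-flox libraries exceeded all WT libraries. Ube2c, at a log2 fold change of 1.10 ± 0.22 (SE), lay just outside the threshold (edgeR adjusted p = 0.0557), and it was called in 7 of 17 alternative fits. Its adjusted p in these fits ran from 1.6e-04 in DESeq2 to 0.182 without Blimp1-flox 4. Cdc20, the APC/C activator of anaphase, had means of 49.2 ± 17.5 CPM in Blimp1-flox and 29.3 ± 7.07 CPM in WT (SD, n = 4 each) and stood at 0.75 ± 0.24 on the log2 scale (SE; edgeR adjusted p = 0.184). Groups without overlap were thus seen in Ccnb1, Ccnb2 and Ube2c, 3 of 22 mitotic members (13.6%), in 0 of 20 S phase members, and in 3.75% of all tested genes in the same direction.

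**Figure D4:**
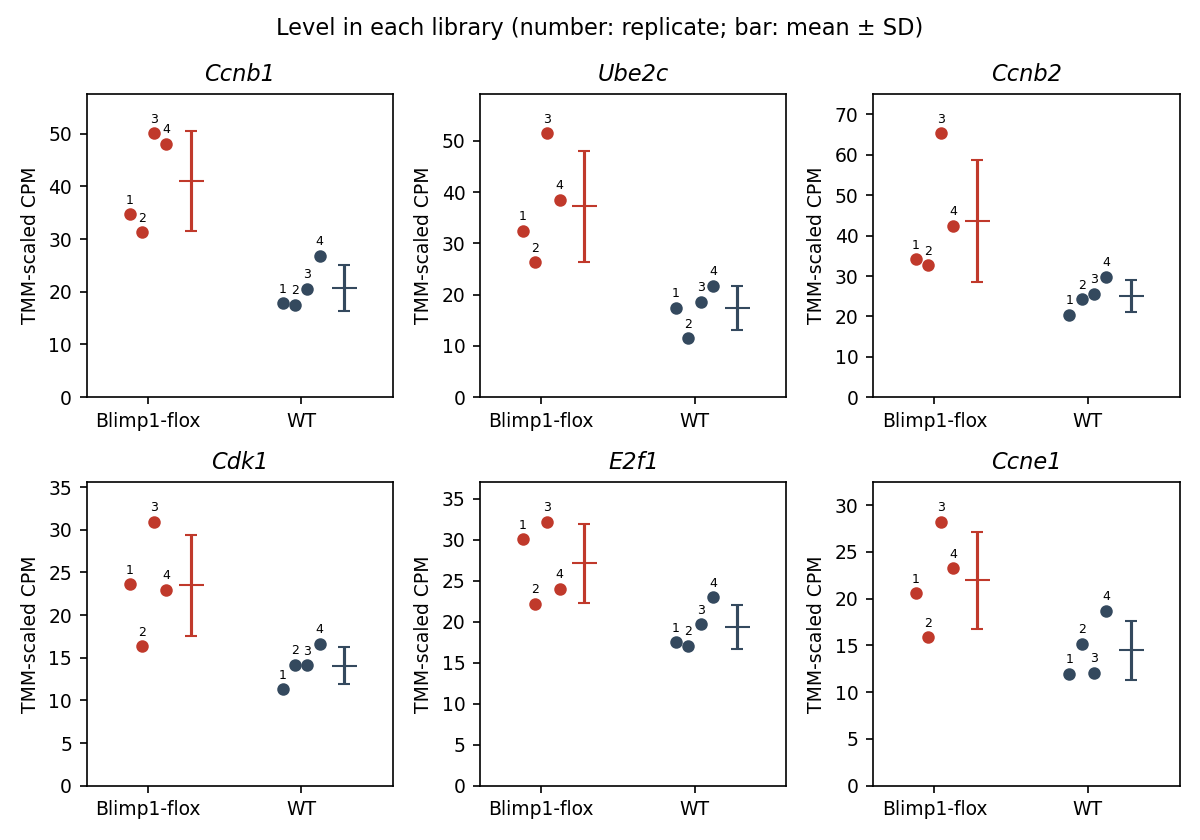
TMM-scaled CPM of 6 members in each library (points, numbered by replicate; bars are mean ± SD of 4 libraries), Blimp1-flox left of WT. In Ccnb1, Ube2c and Ccnb2 the lowest Blimp1-flox library lies above the highest WT library, and in Cdk1, E2f1 and Ccne1 1 Blimp1-flox library falls below WT 4.

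Other tests called more of these genes. DESeq2 called 7 mitotic members higher, namely Cdk1, Ccna2, Ccnb1, Ccnb2, Birc5, Ube2c and Cdc20, and no S phase member, with 1.56% of all tested genes called higher. limma-voom with quality weights called 6 of these 7, all but Cdc20, and the S phase member Ccne1, with 1.72% of all tested genes called higher.

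Among the mitotic kinases, Plk1, which acts from mitotic entry to cytokinesis, had means of 33.9 ± 8.26 CPM in Blimp1-flox and 23.1 ± 4.44 CPM in WT (SD, n = 4 each) and stood at 0.56 ± 0.19 on the log2 scale (SE; edgeR adjusted p = 0.187). Aurkb, the kinase of the chromosomal passenger complex, averaged 33.2 ± 12.4 CPM in Blimp1-flox and 20.7 ± 8.88 CPM in WT (SD, n = 4 each), a log2 fold change of 0.68 with overlap in WT 4. Aurka, the kinase of the spindle poles, had a log2 fold change of 0.40, and Foxm1, the transcription factor of mitotic genes, 0.28. Foxm1 exons overlap the gene 4933413G19Rik on the same strand, in a stretch of up to 90 of its 4365 exon bases, so counts there are uncertain. Birc5, survivin of the passenger complex, stood at 0.79 ± 0.23 on the same scale (SE; edgeR adjusted p = 0.155), with means of 32.9 ± 10.6 CPM in Blimp1-flox and 19.0 ± 4.83 CPM in WT (SD, n = 4 each). The spindle checkpoint genes Bub1b and Bub1 had log2 fold changes of 0.48 and 0.39. None of these genes passed.

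Spindle and kinetochore genes were positive in all 7 cases, with a median log2 fold change of 0.45. The spindle motor genes Kif20a and Kif11 stood at 0.56 and 0.45, the spindle assembly factor gene Tpx2 at 0.51 and the spindle-bundling gene Nusap1 at 0.34. Stmn1, the microtubule destabiliser stathmin and the mitotic member with the highest level per kilobase of exon (52.7 CPM per kb over 8 libraries), held 56.0, 50.4, 94.0 and 64.4 CPM in Blimp1-flox and 40.1, 35.1, 44.1 and 62.8 CPM in WT, or 0.54 ± 0.22 as log2 fold change (SE; edgeR adjusted p = 0.262). Only WT 4 overlapped Blimp1-flox in Stmn1. The kinetochore genes Cenpf and Cenpe stood at 0.35 and 0.09, and Cenpf had the lowest level of all members per kilobase at 1.23 CPM per kb. Top2a, the topoisomerase that untangles chromosomes, and Mki67, the chromosome-surface protein used as a proliferation marker, stood at log2 fold changes of 0.36 and 0.13. Mki67 held 45.0, 59.7, 81.3 and 51.6 CPM in Blimp1-flox and 34.0, 57.4, 40.6 and 84.8 CPM in WT, so WT 4 held the most. Exons of Kif20a overlap Brd8 and Cdc23, those of Nusap1 overlap Oip5, and those of Cdc20 overlap Elovl1, all on the other strand. The longest shared stretches were 977 bases in Kif20a, 208 in Nusap1 and 52 in Cdc20.

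The S phase members with a log2 fold change at an unadjusted p under 0.05 were regulators of the step into S phase and genes of nucleotide supply. E2f1, the activator of the E2F wave, averaged 27.1 ± 4.78 CPM in Blimp1-flox and 19.3 ± 2.68 CPM in WT (SD, n = 4 each). Blimp1-flox libraries ran from 22.2 to 32.2 CPM and WT libraries from 17.1 to 22.9 CPM. Its log2 fold change was 0.49 ± 0.15 (SE; edgeR adjusted p = 0.176), and only Blimp1-flox 2 and WT 4 overlapped. Ccne1, cyclin E1 of the G1/S switch, held 20.6, 15.8, 28.2 and 23.3 CPM in Blimp1-flox and 11.9, 15.2, 12.1 and 18.7 CPM in WT, or 0.60 ± 0.20 as log2 fold change (SE; edgeR adjusted p = 0.184). Its paralogue Ccne2 had a lower level per kilobase (2.33 against 9.32 CPM per kb) and stood at -0.12 ± 0.20 on the log2 scale (SE; edgeR adjusted p = 0.803). Exons of Ccne2 overlap Ints8 on the other strand, in a stretch of up to 1599 of its 3220 exon bases. Its level is therefore uncertain without the strand setting of the counting.

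All 5 genes of nucleotide supply had positive log2 fold changes, with a median of 0.31, and none passed. Rrm2, the cell cycle-regulated subunit of ribonucleotide reductase, held 77.1, 85.7, 147 and 109 CPM in Blimp1-flox and 70.8, 64.6, 76.7 and 91.6 CPM in WT, or 0.46 ± 0.18 as log2 fold change (SE; edgeR adjusted p = 0.258). Tyms, thymidylate synthase, held 41.8, 41.3, 59.8 and 52.3 CPM in Blimp1-flox and 36.8, 36.5, 36.9 and 43.7 CPM in WT, or 0.35 ± 0.13 as log2 fold change (SE; edgeR adjusted p = 0.240). For Tyms only WT 4 reached the Blimp1-flox range. Rrm1, the large reductase subunit, stood at 0.31, the thymidine kinase gene Tk1 at 0.14 and the dUTPase gene Dut at 0.11. Tk1 exons overlap Afmid on the other strand.

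None of the MCM helicase genes passed, and their genotypes overlapped in every case. Their log2 fold changes were 0.13 for Mcm2, 0.10 for Mcm3, -0.14 for Mcm4, 0.13 for Mcm5, 0.08 for Mcm6 and 0.16 for Mcm7, each with a standard error from 0.093 to 0.11. The band of 2 standard errors around each of these values lay between -0.33 and 0.38 on the log2 scale. Mcm6 had the highest level per kilobase of all 42 members at 178 CPM per kb over 8 libraries, while the other helicase subunits stood at 52.1 to 63.0 CPM per kb. Mcm6 held 467, 538, 582 and 540 CPM in Blimp1-flox and 523, 469, 533 and 481 CPM in WT, or 0.08 ± 0.093 as log2 fold change (SE; edgeR adjusted p = 0.687). The replication clamp gene Pcna, second per kilobase at 123 CPM per kb, held 154, 143, 161 and 137 CPM in Blimp1-flox and 178, 151, 156 and 166 CPM in WT, or -0.13 ± 0.090 as log2 fold change (SE; edgeR adjusted p = 0.498). The genotypes overlapped in Pcna too.

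No licensing or firing factor passed either. Cdc6 and Cdt1, which load the helicase, had log2 fold changes of 0.0035 and -0.16. Cdc45 and Gins2, which join the helicase to form the active unwinding complex, had log2 fold changes of 0.29 and 0.24, and Gins2 exons overlap Gse1 on the other strand. Uhrf1, which guides maintenance methylation of new DNA, stood at 0.33 ± 0.16 (SE; edgeR adjusted p = 0.345).

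RefSeq windows of 300 bases were found for 16 mitotic and 17 S phase members, and for 9440 of the tested genes. The cell cycle homology region (CHR), through which the DREAM and FOXM1-MYB complexes act on mitotic genes, was searched as TTTGAA and TTCGAA on both strands. It was present in 12 of 16 mitotic members (75.0%), 3 of 17 S phase members (17.6%) and 16.3% of tested genes. All 12 of these mitotic windows also held a CCAAT box, a combination present in 6.75% of tested genes. The E2F core, searched on both strands as TTCCCGC, as TTGGCGC, as TTCGCGC and as TTGCCGC, was present in 9 S phase members (52.9%), 3 mitotic members (18.8%) and 19.6% of tested genes. CCAAT alone was present in 14 mitotic members (87.5%), 10 S phase members (58.8%) and 43.0% of tested genes.

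The lines below show, 5′ to 3′, 30 bases around the CHR nearest to the start in the 5 mitotic members with the lowest unadjusted p that have one, and then around the E2F core in Rrm1, an S phase member at an unadjusted p under 0.05, and in Mcm6, the member with the highest level (GRCm38.p6). They set the mitotic sites beside the E2F sites, and capitals mark the match.
Ube2c, chr2:164769888-164769917, plus strand: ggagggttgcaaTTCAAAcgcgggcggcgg
Cdk1, chr10:69352910-69352939, minus strand: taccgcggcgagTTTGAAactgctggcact
Ccnb2, chr9:70421533-70421562, minus strand: agcggcgcggtaTTTGAAtcgcggaccggg
Cdc20, chr4:118437344-118437373, minus strand: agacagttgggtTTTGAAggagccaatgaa
Plk1, chr7:122159453-122159482, plus strand: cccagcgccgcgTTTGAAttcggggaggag
Rrm1, chr7:102441616-102441645, plus strand: caggagaactcgTTCCCGCcaggtccgctt
Mcm6, chr1:128359664-128359693, minus strand: agccggaggcgcGCGCGAAgtggcagcgcg

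The matches in Ube2c, Cdk1 and Cdc20 begin 29, 15 and 18 bases before the annotated start, and those in Ccnb2 and Plk1 begin 4 and 30 bases after it. The capitals in Ube2c and Mcm6 are matches read on the opposite strand. Ccnb1, Birc5, Nusap1 and Cenpe had no CHR match in their windows, at log2 fold changes of 0.99, 0.79, 0.34 and 0.09. The window of E2f1 lies inside the gene model of the deposited table and held none of the 3 motifs.

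Within the mitotic list, the log2 fold change varied with the exon length of the gene. Across the 22 mitotic members Spearman's rho between exon length and log2 fold change was -0.74, while it was -0.05 across the 20 S phase members and -0.22 across all 12363 tested genes. These are descriptions across genes of the same 8 libraries. The 11 mitotic members with exon lengths from 931 to 2960 bases had a median log2 fold change of 0.74, and the 11 from 3416 to 11122 bases one of 0.39. Summed levels of the shorter genes were 348, 327, 623 and 457 CPM in Blimp1-flox and 227, 221, 282 and 361 CPM in WT. Those of the longer genes were 312, 420, 687 and 462 CPM in Blimp1-flox and 273, 339, 333 and 493 CPM in WT. Blimp1-flox 1 had the lowest sum of its genotype in the longer genes but not in the shorter ones.

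Over all tested genes Blimp1-flox 1 also stood higher in short and lower in long genes, with median deviations from the gene's mean of 0.19 log2 units in the shortest 2473 genes and -0.16 in the longest 2473. WT 2 had the opposite trend, with -0.15 and 0.16. With a length trend removed from each library, an alternative chosen after the data were seen, the mitotic median was 0.53 and the S phase median 0.15, all 22 mitotic members stayed positive, and Ccnb1 was called (adjusted p = 0.0356). The rho across the 22 mitotic members was then -0.56 and that across all tested genes 0.012. The part of gene length in the mitotic values was not tested beyond this.

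**Figure D5:**
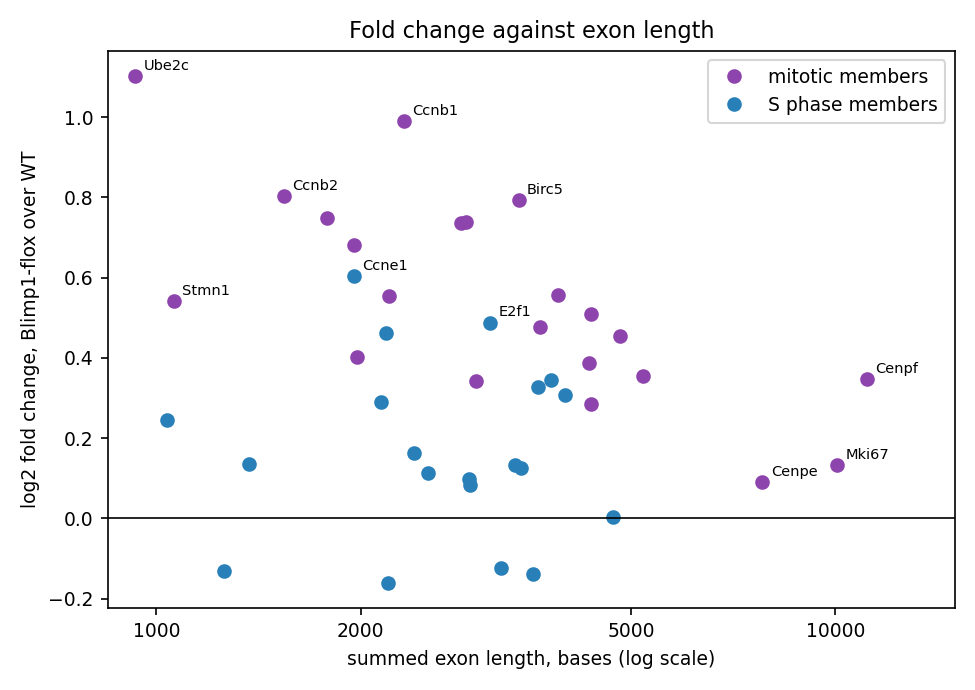
Log2 fold change (y axis, Blimp1-flox over WT) against summed exon length in bases (x axis, log scale) for the 22 mitotic and 20 S phase members. Ube2c, the shortest mitotic member at 931 bases, lies highest at 1.10, and Cenpe, Mki67 and Cenpf, the longest, lie at 0.09 to 0.35.

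Further genes of the same processes were counted in the same way. They come from the same 8 libraries and from lists chosen with earlier results known, so they are no independent support. Blimp1-flox 3 was the highest library in 47 of the 57 further mitotic and 27 of the 49 further replication genes. Of 57 further mitotic genes 52 had a log2 fold change above 0, the median being 0.38, none was called, and 16 (28.1%) were higher and 2 lower at an unadjusted p under 0.05, beside 7.11% higher and 9.05% lower over all tested genes. Of 49 further replication genes 30 were positive with a median of 0.05, none was called, and 2 (4.08%, below the share over all tested genes) were higher and none lower at an unadjusted p under 0.05. In the further mitotic list the lowest p-values belonged to Bub3, a spindle checkpoint protein, at 0.37 ± 0.097 on the log2 scale (SE; edgeR adjusted p = 0.112), and to Ccnf, cyclin F, at 0.86 ± 0.23 (SE; edgeR adjusted p = 0.117). Bub3 held 226, 183, 196 and 217 CPM in Blimp1-flox and 174, 143, 157 and 163 CPM in WT, without overlap. Such a lack of overlap in this direction was seen in 3 of the 57 genes (5.26%), near the 3.75% of all tested genes. The 2 further mitotic genes that were lower, named after their values were seen, are Smc4, a core subunit of condensin, and Pttg1, the separase inhibitor securin. Smc4, which had the highest CPM of that list, held 311, 427, 493 and 334 CPM in Blimp1-flox and 500, 764, 554 and 998 CPM in WT, or -0.85 ± 0.22 on the log2 scale (SE; edgeR adjusted p = 0.128). Smc4 was called lower by DESeq2 (adjusted p = 0.0024), by limma-voom (adjusted p = 0.039) and in edgeR without Blimp1-flox 3 and WT 4 (adjusted p = 0.0468), and in no other of the 17 alternative fits, where its adjusted p reached 0.363. DESeq2 called 2.1% and limma-voom 2.27% of all tested genes lower. Pttg1 averaged 68.7 ± 4.03 CPM in Blimp1-flox and 81.1 ± 4.49 CPM in WT (SD, n = 4 each; edgeR adjusted p = 0.231). In both genes every Blimp1-flox library lay below every WT library, as in 4.72% of all tested genes. In the further replication list they belonged to Rpa1, the large subunit of the single-strand binding protein, at 0.34 ± 0.095 (SE; edgeR adjusted p = 0.133), and to the histone chaperone gene Asf1b at 0.52 ± 0.17 (SE; edgeR adjusted p = 0.180). Without Blimp1-flox 3 the medians of these lists were 0.15 and -0.04.

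Of 17 E2F, RB and DREAM genes 7 were positive with a median log2 fold change of -0.01 and none was called. The repressive E2F gene E2f8 stood at 0.71 ± 0.28 (SE; edgeR adjusted p = 0.246) and E2f2 at 0.23 ± 0.11 (SE; edgeR adjusted p = 0.337). Of 16 tested CDK inhibitors, G1 cyclins and kinases 7 were positive and 9 negative, with a median log2 fold change of -0.02. At an unadjusted p under 0.05, 2 were higher and 2 lower, beside 7.11% higher and 9.05% lower over all tested genes. Of these 16 genes 1 was called. This was Cdkn1a, the CDK inhibitor p21, which fell to 17.8, 20.0, 13.0 and 15.1 CPM in Blimp1-flox, against 43.3, 24.5, 34.4 and 27.1 CPM in WT (log2 fold change -0.97 ± 0.19 SE, n = 4 each; edgeR adjusted p = 0.0462). Its genotypes did not overlap, and Blimp1-flox 3 held the least. Cdkn2d, another CDK inhibitor gene, went the other way at 0.52 ± 0.15 on the log2 scale (SE; edgeR adjusted p = 0.135). No gene of these further lists, Cdkn1a included, was called in fits without WT 1, without WT 3 or without any 1 of the Blimp1-flox libraries.

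Among the markers of other cell types 1 was called, in the plasma cell list, and none in the B cell, germinal centre B cell, myeloid, CD8 and NK, erythroid or pancreatic lists. At an unadjusted p under 0.05, 11 of 15 B cell markers were lower, beside 9.05% of all tested genes. Of these 15 markers 14 had a negative log2 fold change, with a median of -3.51, and 14 were highest in WT 4. In 9 of the 15 every Blimp1-flox library lay below every WT library, beside 4.72% of all tested genes. The summed level of the 15 markers was 239 to 318 CPM in Blimp1-flox and 287 to 960 CPM in WT. WT 1 to 3 held at most 429 CPM. Most of the sum in Blimp1-flox came from Cd22, and no marker was at 0 in every library. Germinal centre B cells divide rapidly, and their list of 7 markers summed to 188 to 222 CPM in Blimp1-flox and 148 to 240 CPM in WT, lowest in WT 4. Most of this sum was S1pr2 and Fas, and only 4 of the 7 markers passed the filter, so the sum does not measure the share of these cells. The part of B cell RNA in the cell cycle values was not tested. Summed plasma cell markers ran from 13.2 to 95.5 CPM in Blimp1-flox and 21.6 to 31.2 CPM in WT, with Blimp1-flox 3 lowest of all. The called plasma cell marker was Sdc1, syndecan-1, which rose to 6.93, 5.49, 3.20 and 6.09 CPM in Blimp1-flox, against 2.22, 1.30, 0.922 and 1.46 CPM in WT, without overlap (edgeR adjusted p = 0.0334). The Sdc1 call was lost without Blimp1-flox 1, 2 or 4 or WT 2 or 3 (adjusted p = 0.0639 to 0.134). Myeloid markers ran from 78.1 to 208 CPM in Blimp1-flox and 95.4 to 126 CPM in WT, and CD8 and NK markers from 49.5 to 51.5 CPM in Blimp1-flox and 28.9 to 45.0 CPM in WT. Erythroid markers ran from 49.0 to 66.0 CPM in Blimp1-flox and 50.5 to 66.8 CPM in WT, and pancreatic transcripts from 51.8 to 103 CPM in Blimp1-flox and 33.2 to 67.4 CPM in WT. At an unadjusted p under 0.05, 1 of 4 tested plasma cell, 1 of 8 myeloid and 1 of 3 CD8 and NK markers were higher. So were 2 of 11 pancreatic transcripts, beside 7.11% of all tested genes, and 1 of 4 erythroid markers was lower. None of 4 tested germinal centre B cell markers was higher or lower. All 11 tested pancreatic transcripts lay above 0 on the log2 scale, between 0.10 and 2.08, and their median was 0.88. In 2 of these 11, Prss2 and Cela1, every Blimp1-flox library lay above every WT library, as in 3.75% of all tested genes. Most of the others were at 0 in at least 1 library. The part of these cell types in the cell cycle values was not tested. Of the 8 erythroid markers 4 globin genes were at 0 in every library, and of the 13 pancreatic transcripts Amy2a5 was.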

How the data were processed

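Libraries were made with a KAPA mRNA kit, per the labels. The submitters' processing notes name STAR 2.5.2b, featureCounts, Subread 1.5.1 and mm10. The deposited table holds unnormalized counts for 24421 genes and their exon length in bases; its annotation, strand setting and handling of shared exons are not given in the sources used here.

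Genes passing filterByExpr (12363) were scaled by TMM and tested by robust quasi-likelihood in edgeR 4.0.16 (R 4.3.3), with genotype as the only term and Benjamini-Hochberg adjustment. The biological coefficient of variation was 0.192. Each standard error is the absolute log2 fold change over the root of F. Alternatives used RLE or library-total scaling, DESeq2 1.42.0, limma 3.58.1 voom with quality weights, no filter, a filter of 1 CPM in 4 libraries, a replicate block, each library left out, WT 4 and Blimp1-flox 3 left out, and a lowess length trend (span 0.3) removed. The fit was tested on simulated data.

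The members, gene lists and alternatives were chosen with earlier results of these data known. Named genes were all members, the called or else the 2 lowest-p genes of each further pathway list, and Prdm1; promoter windows were to be shown for the lowest-p member of each list with one. Il2ra, Sdc1, Smc4, Pttg1 and Cdkn2d were named after their values were seen. The window of E2f1 was left out and short windows were added after the sequences were seen. Groups without overlap were counted on TMM-scaled CPM. Values of some single marker genes are not reported here.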

Additional observations from a re-analysis of the deposited data

Results flagged for a closer look

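In each of 84 groups of 4 libraries (42 members in 2 genotypes) the gap between the most extreme library and its nearest neighbour was divided by the range of the group, and 4 groups exceeded Dixon's 95% critical value for 4 values. Chance flags about 1 in 20 such groups. Among the S phase members, Mcm7 in Blimp1-flox had a ratio of 0.911, with 178 CPM in Blimp1-flox 3 and 136 to 140 CPM in the other 3 libraries. Tyms in WT had a ratio of 0.943, with 43.7 CPM in WT 4 and 36.5 to 36.9 CPM in the others. Tk1 in WT had a ratio of 0.882, with 33.5 CPM in WT 4 and 19.8 to 21.4 CPM in the others. The mitotic member Cenpe in Blimp1-flox had a ratio of 0.849, with 38.2 CPM in Blimp1-flox 3 and 15.1 to 18.6 CPM in the others. All 4 extremes were high values in Blimp1-flox 3 or WT 4, the libraries that were also highest within their genotype in most members.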

How the results depend on the processing

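Under all 17 alternatives the median log2 fold change of the mitotic members stayed positive and above that of the S phase members. With 1 library left out the mitotic median ran from 0.29 to 0.68, the S phase median from 0.05 to 0.22 and their difference from 0.24 to 0.46; under the other alternatives they ran from 0.46 to 0.53, 0.11 to 0.15 and 0.35 to 0.40. Calls depended more on the tool. The count of mitotic members called was 1 in the edgeR fit described, 7 in DESeq2, 6 in limma-voom with quality weights, 2 with no filter on low counts, 2 without WT 4 and Blimp1-flox 3 together, and 0 to 2 with 1 library left out. No S phase member was called except 1 in limma-voom. In the other cell cycle lists 1 gene was called, against 11 in DESeq2, 13 in limma-voom, 4 without WT 4 and Blimp1-flox 3, and 0 to 2 with 1 library left out. With the replicate number as a block 2 mitotic members and 0 genes of the other lists were called. Same-numbered libraries had correlations of 0.100, 0.153, -0.102 and -0.108 between their deviations, and 3 of 8 libraries correlated best with their own number, so the numbers were not taken as pairs.

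Signs turned in 6 members, with log2 fold changes from 0.0035 (Cdc6) to 0.34 (Nusap1) in the fit of all libraries. Cdc6 stood at -0.0013 under the replicate block, at -0.054 without WT 4 and Blimp1-flox 3, and at -0.23 to 0.18 with 1 library left out. With 1 library left out Mcm3 ran from -0.010 to 0.15, Tk1 from -0.12 to 0.35, Mki67 from -0.055 to 0.44, Nusap1 from -0.032 to 0.60 and Cenpe from -0.31 to 0.43. In each the lowest value came without Blimp1-flox 3. The call on Prdm1 was lost without Blimp1-flox 1 (log2 fold change -2.21, adjusted p = 0.103) and with no filter (-2.14, adjusted p = 0.0502). The causes of these shifts were not tested.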
